A study of Mus musculus with 3 samples.

Results

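The 7 genes described here encode core parts of the Hippo pathway: the coactivators Yap1 and Wwtr1, their DNA-binding partners Tead1 and Tead2, the kinases Lats1 and Lats2, and the upstream regulator Nf2. They were chosen by Ensembl identifier, and all 7 were found among the 24318 rows with an identifier in each deposited table. The measurement was CUT&Tag for H3K36me3, a histone modification laid down along genes as they are transcribed. In this assay a transposase, tethered by the antibody, cuts and tags nearby DNA. The groups were wild-type C57BL/6 mouse embryos of stage E11.5, stage E13.5 and stage E15.5, with 1 library per stage and 3 in all. Each sample title also carries a 3 after the stage, whose meaning the labels do not give, so it is not known here whether a library is 1 of several of its stage. No group carried another allele or agent. At each stage the cells were fetal pancreatic epithelial cells, marked by EpCAM and sorted by flow cytometry. The labels do not say how many embryos went into a library. With 1 library per stage there is no measure of spread between embryos, so every difference below is a size in these libraries and none was tested.

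In the Hippo pathway a kinase cascade ends in LATS1 and LATS2, which phosphorylate YAP and its relative TAZ, the product of Wwtr1, and keep them out of the nucleus. Merlin, the product of Nf2, promotes the activity of LATS kinases at the cell membrane. When the kinases are inactive, YAP and TAZ enter the nucleus, where they bind DNA through TEAD proteins and raise the expression of growth genes. In the developing pancreas YAP is known to act with TEAD factors in progenitor cells, and endocrine cells are known to lose YAP as they form.

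Each table holds 3 columns of signal per gene, headed GB, PR and SE, and the headers do not spell these out. All values below are the deposited mean signal times 1000, that is, signal per 1000 positions of the window. GB values can be compared between genes, since they are means over windows of the gene's own length. The length of each GB window was worked out from the values, as the smallest length at which every library gives a whole multiple of its own step. For Wwtr1 this was 120267 positions and for Tead1 227429, in both cases the exact length of the RefSeq gene of that name. For Lats1 the window of 35253 positions and for Lats2 the window of 56462 equalled the distance from a RefSeq start site to the end of the gene. The Yap1 window of 72596 positions differed from such a distance by 2 positions. The Tead2 window of 17867 positions was 190 longer than the RefSeq gene, and the Nf2 window of 83700 was 8206 shorter. The windows of the members thus match the lengths of the genes they are named for closely in 6 of 7 cases, and GB is read here as the gene body. PR covers 6000 positions and SE 12000, and their place along the gene is not stated.

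The genes lie on different chromosomes apart from the 2 Tead genes. On mm10, the build named in the submitters' processing notes, RefSeq (GRCm38.p6) places Yap1 (ENSMUSG00000053110) at chr9:7931999-8004638, Wwtr1 (ENSMUSG00000027803) at chr3:57455644-57575910 and Tead1 (ENSMUSG00000055320) at chr7:112679356-112906784. Tead2 (ENSMUSG00000030796) lies at chr7:45215792-45233468 and Lats1 (ENSMUSG00000040021) at chr10:7681200-7716461. Lats2 (ENSMUSG00000021959) lies at chr14:57689662-57746212 and Nf2 (ENSMUSG00000009073) at chr11:4757639-4849544. Among the 20004 rows with a recovered length, the members stood between percentile 47.4 for Tead2 and percentile 95.4 for Tead1, so 6 of the 7 are longer than most genes in the table.

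The promoters of 3 members are shown because they hold GGAATG, the core letters of the site that TEAD proteins bind. They were taken from RefSeq (GRCm38.p6), run 5′ to 3′ on the strand of the gene from 250 bases before the start site to 50 after it, and have the motif in capitals.
Yap1, chr9:8004547-8004846, minus strand: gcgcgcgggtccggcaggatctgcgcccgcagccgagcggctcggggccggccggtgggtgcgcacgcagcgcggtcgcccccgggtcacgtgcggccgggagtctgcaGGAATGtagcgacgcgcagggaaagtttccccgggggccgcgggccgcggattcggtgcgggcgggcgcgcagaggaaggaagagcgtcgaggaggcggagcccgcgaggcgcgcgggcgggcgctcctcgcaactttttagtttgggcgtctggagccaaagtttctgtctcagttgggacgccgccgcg
Wwtr1, chr3:57575861-57576160, minus strand: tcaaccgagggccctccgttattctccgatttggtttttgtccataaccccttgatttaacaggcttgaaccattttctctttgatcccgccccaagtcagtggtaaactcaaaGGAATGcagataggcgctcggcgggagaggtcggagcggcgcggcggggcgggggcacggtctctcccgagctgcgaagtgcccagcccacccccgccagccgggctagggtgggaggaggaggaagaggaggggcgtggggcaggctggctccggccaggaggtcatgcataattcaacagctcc
Lats2, chr14:57746074-57746373, minus strand: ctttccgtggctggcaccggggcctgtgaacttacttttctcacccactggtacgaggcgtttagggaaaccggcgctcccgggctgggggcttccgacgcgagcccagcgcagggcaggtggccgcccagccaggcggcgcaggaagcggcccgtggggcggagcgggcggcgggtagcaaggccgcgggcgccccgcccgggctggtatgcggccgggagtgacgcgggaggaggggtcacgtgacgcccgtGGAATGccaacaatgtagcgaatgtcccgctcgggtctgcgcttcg
The motif begins at position -141 from the start site in Yap1, at -136 in Wwtr1 and at 5 in Lats2, each time on the strand of the gene. Both strands were searched for GGAATG, whose reverse complement is CATTCC. Of the 7 members, 6 had a promoter in the table, in 9 windows, and 3 of these 6 genes held a match. The second window of Wwtr1 overlaps the one shown and holds the same match, whereas the second window of Lats2 holds none. Of all genes with a promoter there, 16.6% held a match in any window, and over all 32851 windows 14.7% did. A match describes letters, and no binding was measured here. The promoters of Yap1, Lats1 and the first window of Lats2 were rich in CpG, with 49, 42 and 37 CpG pairs in 300 bases, against a median of 7 over all windows. Their GC content was 74.0, 73.0 and 71.7%, with percentiles of 95.4, 94.4 and 92.9 among all windows. Wwtr1 had 20 CpG pairs, Tead2 13 and the first Nf2 window 22. The promoter of Tead1 is not shown.

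Facts of the whole tables bear on how the members read. Per the labels, samples were sequenced to a mean of 20000000 reads, but the depth behind each deposited table is unknown. The median GB over identified rows was 4.32 (E11.5), 4.21 (E13.5) and 3.71 (E15.5), and the median PR was 3.94, 3.68 and 5.59. PR was listed at 0 in 7.59, 11.9 and 22.1% of rows in stage order. How many reads lie behind one PR value is not known, and coverage may be thin. In steps, the smallest unit of signal of a library, the median PR window summed to 146 (E11.5), 132 (E13.5) and 206 (E15.5), over 6000 positions. Steps are signal summed over positions and cannot be read as counts of reads. Of PR sums above 0, 93.0, 92.3 and 95.1% in stage order were even numbers of steps. The tables pair no symbols with identifiers, so markers of pancreatic epithelium, of other cell types and of further Hippo genes (the kinases Stk3 and Stk4 and targets such as Ccn1 and Ccn2) could not be looked up. The labelled cell type was therefore not checked against its markers.

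Over gene bodies Tead2 carried the most signal of the 7 in every library, and Tead1 came next at E13.5 and E15.5. The lowest member was Lats1 at E11.5 and Wwtr1 at both later stages. Median GB of the members was 6.37, 5.18 and 5.52 in stage order (E11.5, E13.5, E15.5), above the median of all rows each time. Their median percentile among identified rows was 66.9, 59.6 and 61.0 in stage order. At or above the median of all rows were 4, 4 and 6 of the 7 members. The members ranged from 2.24 to 9.48 at E11.5, from 3.55 to 21.6 at E13.5 and from 1.30 to 10.8 at E15.5. No member was at 0 in GB. How far neighbours in these orders differ beyond the spread between embryos cannot be said.

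**Figure D1:**
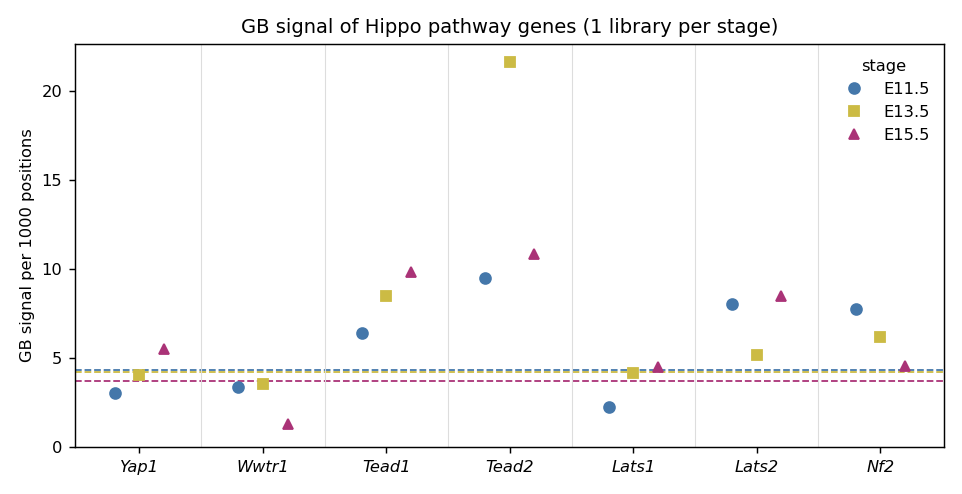
GB signal per 1000 positions (vertical axis) of the 7 genes (horizontal axis) at E11.5 (circles), E13.5 (squares) and E15.5 (triangles), each point 1 library; dashed lines are the median over all identified rows at that stage. Tead2 at E13.5, at 21.6, stands above every other point, and Wwtr1 at E15.5, at 1.30, is the lowest.

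Yap1, the main coactivator of the pathway, had GB of 3.00 (E11.5), 4.01 (E13.5) and 5.52 (E15.5). Its level was higher at each later stage, and so was its percentile, at 36.6, 47.6 and 61.0. The log2 ratio of E15.5 over E11.5, taken on value + 0.001 in deposited units, was 0.70, short of the 2-fold difference used as the call here. In sorted bulk cells, fewer cells with the mark and less mark per cell cannot be told apart. Wwtr1, which encodes the coactivator TAZ, went the other way between the last stages. Its GB was 3.37, 3.55 and 1.30 in stage order, with percentiles of 40.5, 42.5 and 31.8. The Wwtr1 values at E13.5 and E11.5 were close to each other and the value at E15.5 was low. The plain ratio of E15.5 over E13.5 was 0.367, but no Wwtr1 value reached the floor of 4.13 set for a call, and the log2 ratio on value + 0.001 was -0.98. The ratio of Yap1 to Wwtr1 in GB was thus 0.890 (E11.5), 1.13 (E13.5) and 4.23 (E15.5).

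Tead2, a DNA-binding partner of YAP and TAZ, had the highest GB of the 7 in every library. It had 9.48 (E11.5), 21.6 (E13.5) and 10.8 (E15.5), with percentiles of 82.6, 97.7 and 78.9. The E13.5 value is the one that stands apart. It was 2.28 times that at E11.5, with a log2 ratio of 1.11, and E15.5 over E13.5 gave -0.94. The Tead2 body is the shortest of the 7, and its GB sum of 2304 steps at E13.5 compares with 1046 at E11.5 and 1186 at E15.5. Tead1, the longest of the 7, had 6.37, 8.47 and 9.82 in stage order and rests on more coverage, with 8946, 11512 and 13702 steps. Its value was higher at each later stage, but its percentile was highest at E13.5, at 66.9, 80.8 and 76.7. The ratio of Tead2 to Tead1 was 1.49, 2.55 and 1.10 in stage order.

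Lats2, a kinase that inhibits YAP and TAZ and is itself known as a target of YAP, had GB of 8.02 (E11.5), 5.18 (E13.5) and 8.48 (E15.5). It was lowest at the middle stage and nearly equal at the outer ones. Its relative Lats1 had 2.24, 4.15 and 4.50. The E11.5 value was the lowest of any member at that stage, at percentile 29.6, and the later values stood at 49.3 and 55.2. Lats1 at E15.5 was 2.01 times its E11.5 value as a plain ratio, but the log2 ratio on value + 0.001 was 0.76 and was not a call. The ratio of Lats2 to Lats1 was 3.58, 1.25 and 1.88 in stage order, so Lats2 was higher in all 3 libraries.

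Nf2, which encodes the membrane-linked regulator Merlin, had lower GB at each later stage, with 7.75 (E11.5), 6.16 (E13.5) and 4.52 (E15.5). Its percentile was lower each time too, at 75.3, 67.7 and 55.3. The log2 ratio of E15.5 over E11.5 was -0.66, short of 2-fold. Yap1 and Nf2 thus had opposite orders over the stages. These orders, and those of Lats1 with the E11.5 value lowest, held after each library was divided by its median GB and after quantile normalization. For Tead1, Tead2 and Lats2 the scaling decided the direction of some ratios. Quantile normalization turned E15.5 over E13.5 for Tead1 to -0.18, and E15.5 over E11.5 to -0.18 for Tead2 and -0.14 for Lats2, from ratios of 0.19, 0.17 and 0.07.

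Few gene bodies among these genes were called as different between stages. A call needs a 2-fold difference on the log2(value + 0.001) scale and a value of at least 4.13, the median GB over rows and libraries, in one of the stages. Shares of all rows called, here and for PR and SE, are taken over the rows that reach the floor of the column. For E13.5 over E11.5, 1 of 5 members above that floor was higher, Tead2, and 0 were lower, where 17.2% of all rows were higher and 19.4% lower. In the length class of Tead2, 12000 to 50000 positions, 10.5% were higher. With a pseudocount of 0.005 the Tead2 ratio was 0.88 and no longer a call. For E15.5 over E13.5, 0 of 6 members were higher and 0 lower, against 27.6% and 22.1% of all rows. For E15.5 over E11.5, 0 of 6 were higher and 0 lower, against 26.5% and 22.8%. Most members have long bodies, where calls are rarer. Among bodies of at least 50000 positions, 6.26% were higher and 9.93% lower at E15.5 over E13.5. At E15.5 over E11.5 these shares were 6.78% and 9.26%. Median log2 ratios of all 7, including members below the floor, were 0.32, 0.09 and 0.17 for these 3 comparisons. Over the rows that reached the floor the medians were -0.07, 0.22 and 0.14, and with no floor they were 0.00 over all rows in each comparison.

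PR signal of the members was far less steady than GB, and more calls were made in PR over all rows too. For E15.5 over E13.5, 52.2% of all rows that reached the floor were 2-fold higher in PR, against 27.6% in GB. The PR window, of 6000 positions, is also shorter than the GB window of any member. Median PR of the members was 4.91 (E11.5), 2.96 (E13.5) and 12.1 (E15.5), with a median percentile of 56.5, 43.9 and 64.5. At E15.5 all 7 members were above the median of all rows, against 2 at E13.5 and 4 at E11.5. The order of the members changed with the stage: Yap1 was highest at E11.5, Tead1 at E13.5 and Nf2 at E15.5.

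**Figure D2:**
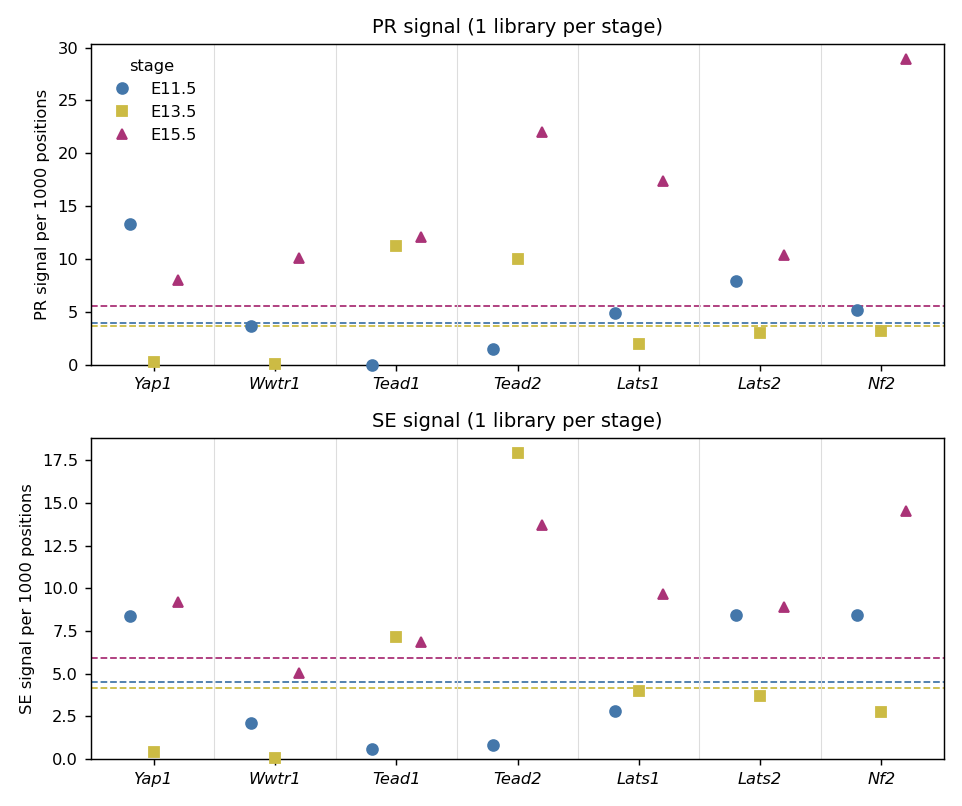
PR (upper panel) and SE (lower panel) signal per 1000 positions of the 7 genes at E11.5 (circles), E13.5 (squares) and E15.5 (triangles), each point 1 library; dashed lines are medians over all identified rows at that stage. In PR, Nf2 at E15.5 reaches 28.9, Yap1 and Wwtr1 at E13.5 lie near 0, and Tead1 at E11.5 is listed at 0.

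The coactivator genes shared a low PR value at E13.5. Yap1 had PR of 13.3 (E11.5), 0.223 (E13.5) and 7.98 (E15.5), that is, sums of 494, 8 and 294 steps. Wwtr1 had 3.67, 0.0550 and 10.1, or 136, 2 and 372 steps. Both were lowest at E13.5, where their percentiles were 16.2 and 12.9, and the 2 steps of Wwtr1 are close to the least that a window above 0 can hold. At that stage 444 rows had a PR sum above 0 of at most 2 steps. The GB values of both genes at E13.5, 4.01 and 3.55, were the lowest among the members. They stood at percentiles 47.6 and 42.5, below the median of 4.21 over all rows.

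The TEAD genes had low PR at E11.5 instead. Tead1 was listed at 0 at E11.5 and had 11.2 at E13.5 and 12.1 at E15.5, or 400 and 444 steps, and no ratio is given against the 0. Tead2 had 1.46, 9.99 and 22.0, or 54, 358 and 812 steps. In both genes E11.5 was lowest and E15.5 highest, but the percentile of Tead1 was higher at E13.5, at 88.5, than at E15.5, at 64.5. The same held more narrowly for Tead2, at 85.0 and 81.7.

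For the kinases and Nf2, PR was lowest at E13.5 and highest at E15.5. Lats1 had 4.91, 1.95 and 17.4 in stage order, Lats2 had 7.88, 2.96 and 10.4, and Nf2 had 5.18, 3.18 and 28.9. Nf2 at E15.5 was the highest PR value of any member, with 1066 steps and percentile 88.0, at the stage where its GB was lowest. Lats2 was the only one of these 3 whose percentile at E15.5, 60.8, was below that at E11.5, 73.1.

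**Figure D3:**
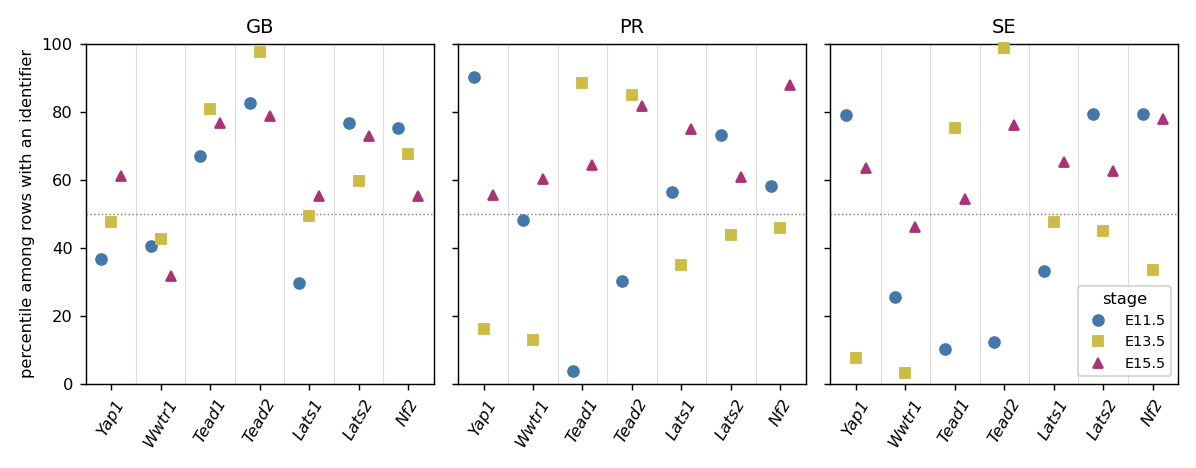
Percentile among all identified rows (vertical axis) of the 7 genes in GB, PR and SE at E11.5 (circles), E13.5 (squares) and E15.5 (triangles), each point 1 library; the dotted line marks 50. GB points of a gene span a narrower range than its PR points in all 7 genes, with Tead1 in PR reaching from 3.79 at E11.5 to 88.5 at E13.5.

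Many PR calls were made among the members, as among all rows. The floor for PR was 4.07. For E13.5 over E11.5, 2 of 6 members above the floor were higher (Tead1 and Tead2) and 3 lower (Yap1, Lats1 and Lats2), where 28.7% of all rows were higher and 32.8% lower. Lats1 was at the edge of a call, with a log2 ratio of -1.001, and Yap1 had -3.55. For E15.5 over E13.5, 6 of 7 were higher and 0 lower, against 52.2% and 24.7% of all rows, and Tead1 alone was not called, at 0.10. For E15.5 over E11.5, 5 of 7 were higher and 0 lower, against 50.02% and 25.99% of all rows, and Yap1 (-0.67) and Lats2 (0.36) were not called. The median log2 PR ratio of all 7 members was -1.001, 2.64 and 1.64 for these comparisons, beside -0.16, 1.12 and 1.001 over the rows that reached the floor. With no floor, the medians of all rows were -0.05, 0.37 and 0.26. Tead1, listed at 0 at E11.5, lies above the median of the members in both comparisons with that stage. In the median, PR at E15.5 was thus higher over the table, but by less when no floor was set. Rows at 0 in PR were also most frequent at E15.5, at 22.1%. Nothing particular to the members is read from these counts. Quantile normalization, which makes the stages equal over the table, moved the median PR log2 ratio of all rows tested by -1.12 for E15.5 over E13.5 and by -0.99 for E15.5 over E11.5. The share of calls that were higher then went to 50.1% in both comparisons, where it was 67.9 and 65.8% as deposited. The median of the members stayed above 0 under it, at 2.03 and 0.80, but the direction or the call of some members changed. For E15.5 over E13.5, Tead2 turned to -0.17, against 1.07 as deposited, and Tead1 became a lower call at -1.06, against 0.10. For E15.5 over E11.5, 3 members were then higher and 1 lower: Wwtr1 at 0.64 and Lats1 at 0.80 were no longer called, Yap1 became the lower call at -1.59, against -0.67, and Lats2 stood at -0.51, against 0.36.

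**Figure D4:**
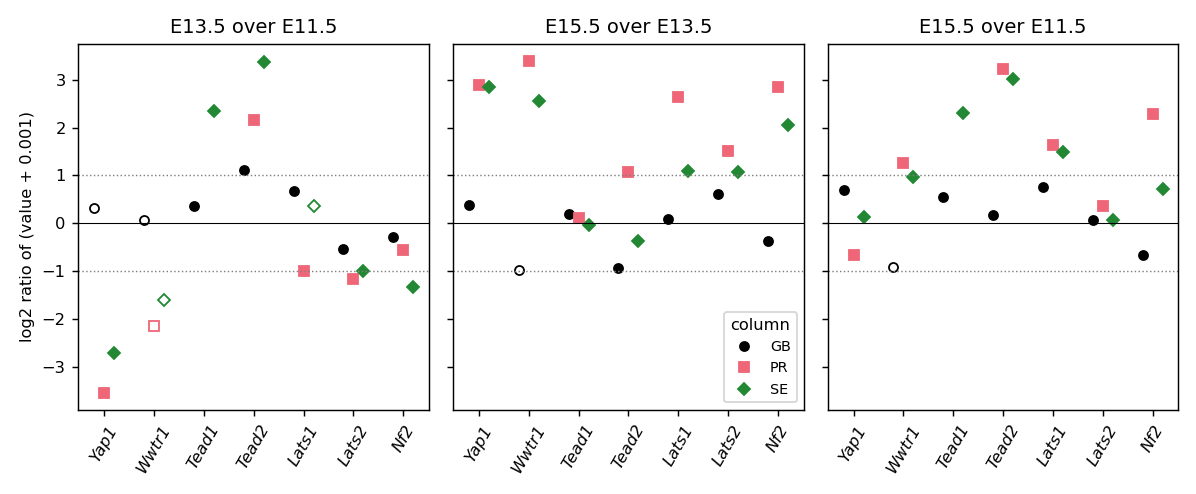
Later stage over earlier stage as a log2 ratio, on value + 0.001 (vertical axis), for GB (circles), PR (squares) and SE (diamonds) of the 7 genes, 1 library per stage; open symbols lie below the floor for a call, and dotted lines mark 2-fold. PR of Tead1 against E11.5 is left out because it is listed at 0 there. GB circles stay within 2-fold except Tead2 at E13.5 over E11.5, at 1.11, whereas PR squares reach -3.55 and 3.40.

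SE, a window of 12000 positions, had both coactivator genes lowest at E13.5 and both TEAD genes lowest at E11.5. As SE was taken to hold the PR window, this is not an observation separate from PR. For Wwtr1 the SE sums of 2 steps at E13.5 and 372 at E15.5 equal its PR sums, and for Tead2 at E11.5 PR held 54 of 60 SE steps. Median SE of the members was 2.83 (E11.5), 3.71 (E13.5) and 9.18 (E15.5), with median percentiles of 33.1, 44.8 and 63.6. Tead2 had 0.809, 17.9 and 13.7, and its E13.5 value stood at percentile 98.8. Tead1 had 0.593, 7.12 and 6.87. Both TEAD genes were low at E11.5 alone. Yap1 had 8.35, 0.418 and 9.18 and Wwtr1 2.10, 0.0275 and 5.05, with both low at E13.5. Lats1 had 2.83, 3.96 and 9.67, lowest at E11.5. Lats2 had 8.44, 3.71 and 8.88 and Nf2 had 8.44, 2.73 and 14.5, both lowest at E13.5.

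Calls in SE, with a floor of 4.60, numbered 2 higher (Tead1 and Tead2) and 3 lower (Yap1, Lats2 and Nf2) of 5 members above it for E13.5 over E11.5, where 19.9% of all rows were higher and 24.8% lower. Lats2 was at the edge of a call there, at -1.003. For E15.5 over E13.5, 5 of 7 were higher and 0 lower, against 45.7% and 17.9%. That count depended on the processing: after quantile normalization 2 were higher and 1, Tead2 at -1.44, was lower, and with a pseudocount of 0.005 there were 2 higher and 0 lower. For E15.5 over E11.5, 3 of 7 were higher and 0 lower, against 42.7% and 19.7%, and these were Tead1, Tead2 and Lats1. Some ratios that were not called changed sign with the scaling. Quantile normalization turned E15.5 over E11.5 from 0.12 to -0.52 for Yap1, from 0.06 to -0.57 for Lats2 and from 0.71 to -0.06 for Nf2. Division by the median GB turned E15.5 over E13.5 for Tead1 from -0.04 to 0.12.

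SE never summed to less than PR in any row and was taken to hold the PR window, so the 6000 positions of SE outside PR were also taken alone. There Wwtr1 had 0 at E13.5 and E15.5, and Nf2 had 0 at E15.5. For Nf2 at E15.5 the SE window thus held no signal beyond that of PR. Tead2 had 25.8 in this outer part at E13.5, at percentile 99.4, against 0.162 at E11.5 and 5.27 at E15.5. The E13.5 value of Tead2 was thus high in GB, in PR and in the outer part of SE. These windows may share positions with the gene body, so they are not independent measures of it.

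The ratio of PR to GB within a library does not change with a scale factor of that library. Over the members its median was 0.982 (E11.5), 0.471 (E13.5) and 2.04 (E15.5), beside 0.770, 0.740 and 1.08 over all rows with GB above 0. PR was above GB in 3 members at E11.5, in 1 at E13.5 and in 7 at E15.5. The share of all rows with PR above GB was not computed, so nothing particular to the members is read from these counts. At E15.5 the median of all rows was itself above 1. Among bodies of at least 50000 positions, the class of most members, that median was 0.764, 0.756 and 1.54 in stage order. Yap1 had a ratio of 4.44 (E11.5), 0.0557 (E13.5) and 1.45 (E15.5). Wwtr1 had 1.09, 0.0155 and 7.75, and Nf2 had 0.668, 0.517 and 6.40. At E15.5 Wwtr1 and Nf2 stood at percentiles 93.3 and 91.1, the highest of the members, and both had their lowest GB and highest PR at that stage. Tead1, with 1.23, and Lats2, with 1.22, were near the median of the table at E15.5. Among bodies of at least 50000 positions both were below the median, at percentiles 45.5 and 45.4. The median percentile of the members at E15.5 was 67.5 among all rows and 56.0 among these long bodies.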

How the data were processed

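H3K36me3 CUT&Tag was measured in 3 libraries, 1 per stage, grouped by their labelled stage, although one sentence of the design text writes the middle stage differently. Reads were aligned with Bowtie2 2.4.2 to mm10, as far as the submitters' processing notes name a tool and a build. For filters, counting, scaling and gene models, the methods are not given in the sources used here. Per the file headers, the authors deposited 3 signal columns (PR, GB, SE) for 25493 rows. Of these, 1175 (4.61%) had no identifier and were left out.

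Multiplied by 6000, 100.0% of PR values above 0 were whole multiples, within 0.05, of 1 step per library (0.16188, 0.16743 and 0.16292 in stage order). A GB length was recovered for 20004 rows. Values were used as deposited, although no source says that libraries were scaled to each other. What 1 step stands for in reads is not stated either, so no counting interval is given. Percentiles are the share of identified rows below a value, with ties split evenly. Ratios used a pseudocount of 0.001 and a floor at the column's median. No test was possible with 1 library per stage. The ratio and length steps were also run on simulated data. Sums there came only in large multiples of a step, unlike the deposited sums, so no accuracy for these data is read from that run. All 7 members are named throughout. Gene names come from the list of members, since the RefSeq table matched 0 of the deposited Ensembl identifiers. The members, lists and rules were chosen with earlier results of these data known. Python 3.11.15, numpy 2.4.6, pandas 2.3.3 and numba 0.67.0 were used. Alternatives were other pseudocounts, floors, folds, scalings and sets of rows.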

Additional observations from a re-analysis of the deposited data

How the results depend on the processing

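Of 192 recomputed levels, percentiles and counts of calls, 157 stayed within 1.5 times the value given and 35 did not, all of them counts of members. Of 315 recomputed log2 ratios of single members, 221 moved by less than 1.5-fold, 93 moved further, and 1 called ratio changed sign: Tead2 in PR for E15.5 over E13.5, at -0.17 after quantile normalization. Ratios that were not called also changed sign in GB, PR and SE, as given above. Counts below are members higher or lower. With the pseudocount of 1, 0 members were called in every comparison that had any. With 0.005, GB for E13.5 over E11.5 had 0 higher, PR and SE for the same pair 1 lower each, and SE for E15.5 over E13.5 had 2 higher. A floor 5 times higher left 0 in either direction for PR and SE at E13.5 over E11.5, 2 higher for PR in both comparisons with E15.5, and 0 higher for SE in both. A threshold of 1.5-fold gave GB 2 higher for E13.5 over E11.5, 1 higher and 1 lower for E15.5 over E13.5, and 2 higher and 1 lower for E15.5 over E11.5, PR 1 lower and SE 5 higher for E15.5 over E11.5. Quantile normalization gave 1 lower in GB, PR and SE and 2 higher in SE for E15.5 over E13.5, and 1 higher in GB, 3 higher and 1 lower in PR for E15.5 over E11.5. Fewer calls with a larger pseudocount or floor, and more with a lower threshold, follow from how these are built. For quantile normalization the cause was not tested. Dividing by the median GB moved no count of members past 1.5 times, and moved the median log2 GB of all rows tested by 0.04, 0.18 and 0.23. No paired analysis was possible because there is a single library at every stage. Depth per table is unknown, and thin coverage may limit PR and SE most.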
